A study of Mus musculus with 2 samples.

Results

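The cells described here are mouse neural progenitors that sit at the end of the cell-cycle circle and carry no discrete cell-cycle stage. Each cell has a cell-cycle position, an angle from 0 to 2π in which late G1 and S lie near 0.5π, G2 near π, mitosis near 1.5π, and G1 or G0 near 2π and 0. Most cells also have a stage by SchwabeCC, a classifier that scores 5 stages (M.G1, G1.S, S, G2 and G2.M) and withholds a stage where the best scores are too close or do not belong to neighbouring stages. Members were chosen by 2 measured values, a position of at least 1.75π (5.498 rad) and a withheld stage, and are called unstaged cells below. They number 2486 of 12805 cells.

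All cells came from 1 condition, wild-type neurospheres of the C57BL/6 strain whose cells came from the dorsal telencephalon at embryonic day 14.5, kept in EGF and bFGF, each at 10 ng/ml. A neurosphere is a ball of neural stem cells and their progeny that grows in suspension. Droplet-based single-cell RNA-seq was carried out on 2 replicate cultures, of which culture 1 held 5748 cells and culture 2 held 7057. Neurospheres were passaged several times before collection. The labels do not say whether the cultures came from different embryos. No treatment, genotype or second condition was compared, cells were not treated as replicates, and no test was run, so errors below describe the spread between the cultures, which may be technical. Whether an unstaged cell was in G1 or in G0 was not measured.

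A proliferating cell passes from mitosis into G1, where it either commits to another round of DNA replication or pauses, for a short time or in the longer-lasting resting state G0. Commitment depends on D-type cyclins, on the E2F transcription factors they release, and on growth through the MYC network, which drives the making of ribosomes in the nucleolus. CDK inhibitors such as p21 (*Cdkn1a*), a classical target of p53, oppose that step. Radial glia, the neural stem cells of the embryonic cortex, cycle quickly and express *Fabp7*, a fatty acid binding protein, and *Vim*, an intermediate filament protein.

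Unstaged cells made up 14.6% (exact binomial 95% interval 13.7% to 15.5%) of all cells in culture 1, or 839 cells, and 23.3% (exact binomial 95% interval 22.4% to 24.3%) in culture 2, or 1647 cells. The intervals cover counting error only and did not overlap. Within the last arc, from 1.75π to 2π, the stage was withheld from 46.9% of 1789 cells in culture 1 and 52.3% of 3149 in culture 2. Most of the gap between cultures therefore lay in the size of the arc, which held 31.1% and 44.6% of all cells. Of all cells of the arc, 24.9% and 23.5% were called M.G1, 12.7% and 9.88% G2, and 14.1% and 7.97% G2.M. S and G1.S calls were few, at 14 and 10 cells in culture 1 and 118 and 81 in culture 2.

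A withheld stage was not particular to the last arc. From 1π to 1.25π it was withheld from 52.8% and 51.1% of cells, and from 0 to 0.25π from 44.2% and 41.1%. The lowest shares were found from 0.25π to 0.5π, at 20.5% and 22.1%. The last arc nonetheless held 34.2% of all cells without a stage in culture 1 and 52.3% in culture 2, since more cells lay there than in any other arc.

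**Figure D1:**
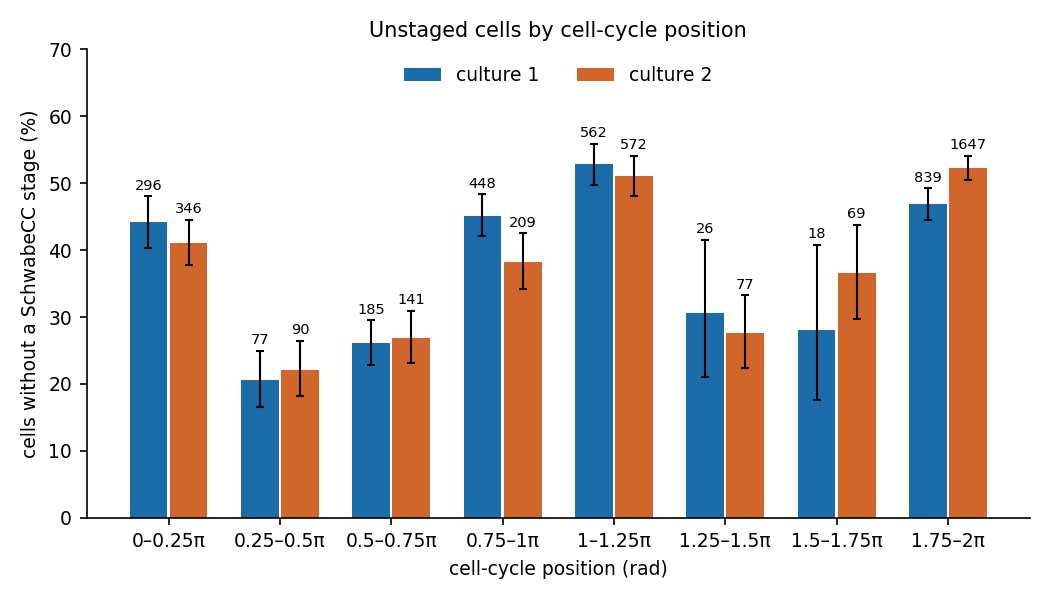
Share of cells without a SchwabeCC stage (y axis, percent) in each of 8 arcs of 0.25π of cell-cycle position (x axis) in culture 1 (blue) and culture 2 (orange), with exact binomial 95% intervals as error bars and the number of unstaged cells above each bar. The shares are high in the last arc (46.9% and 52.3%), in the first, and around π, and low from 0.25π to 0.75π.

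The other stage calls of the authors put the unstaged cells in G1. Cyclone, which compares pairs of genes, called all 839 and all 1647 of them G1. It also called 60.2% and 56.7% of the cells from 0.25π to under 1.25π G1. The Seurat score called 839 of 839 G1 in culture 1 and 1634 of 1647 in culture 2, where 9 were called G2M and 4 S. Of the G2 and G2.M cells of the same arc, Seurat likewise called 100% and 99.3% G1. These classifiers and the position read many of the same genes, so the calls describe the rule and are no separate evidence for it.

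Unstaged cells had fewer transcripts than cells from 0.25π to under 1.25π. The median of total unique molecular identifiers (UMIs) in them reached 18572 in culture 1 and 13907 in culture 2, with 3312 and 2703 genes detected. Cells from 0.25π to under 1.25π, called comparison cells below (3140 and 2598 cells), had medians of 21328 and 16397 UMIs. The log2 difference was -0.22 on average over the cultures. Against their neighbours of the same arc the depth hardly differed, with medians of 18274 and 14146 in M.G1 cells and 18382 and 13964 in G2 and G2.M cells. Between the cultures 48 cell barcodes were shared, and 19 unstaged cells carried one of them.

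At the edge of the arc, unstaged cells on either side of the limit were few. Within 0.05π inside the limit there were 5 unstaged cells in culture 1 and 31 in culture 2, and within 0.05π outside it 2 and 16. In culture 2 the mean level of *Stmn1*, which destabilizes microtubules, was 3.70 inside and 3.69 outside, and that of *Hmgb1*, a chromatin protein, 4.36 and 4.30. *Cdkn1a* stood at 3.16 inside and 2.84 outside, *Fabp7* at 6.36 and 6.59, *Arl6ip1* at 3.37 and 3.45, and *Top2a* at 0.32 and 0.52. In culture 1 the few cells gave *Stmn1* levels of 4.11 and 4.19, *Hmgb1* levels of 4.78 and 5.29 and *Cdkn1a* levels of 0.58 and 3.46. Here and below a level is the mean over cells of log2(value + 1), where the values are the authors' expression signal normalized to the depth of each cell. Most unstaged cells lay far from the limit, 97.7% and 93.2% of them beyond 1.875π.

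The cells carried the radial glia markers *Fabp7* and *Vim*. The level of *Fabp7* was 6.36 in culture 1 and 6.27 in culture 2, and it was detected in 100% and 99.9% of unstaged cells. *Vim* stood at 4.70 in culture 1 and 4.90 in culture 2, and was detected in 98.7% and 100%. These markers describe the culture rather than the unstaged cells, since comparison cells had *Fabp7* levels of 6.39 and 6.34 and *Vim* levels of 4.77 and 4.31. The difference in *Vim*, -0.07 and 0.59, was near 0 in one culture and clearly above 0 in the other. *Slc1a3*, a glial glutamate transporter, differed by 0.23 and -0.40, with opposite signs.

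Of the 13 radial glia genes listed, 11 were analysed and 10 passed the detection filter of 10% of cells in either group in each culture. None of them differed by 0.5 in both cultures, and the median differences were -0.02 and 0.00. Summed over the 11 genes, the level was 21.8 and 21.1 in unstaged cells and 21.9 and 20.9 in comparison cells. *Nes*, another intermediate filament of progenitors, was detected in 89.9% and 89.8% of unstaged cells. *Pax6*, a transcription factor that marks dorsal radial glia in the cortex, was low, at 0.15 in culture 1 and 0.14 in culture 2, with values above 0 in 15.5% and 16.5% of cells. *Ptprz1* was detected in 97.6% and 89.6%, *Hes1* in 43.5% and 48.3% and *Hopx* in 22.5% and 15.8%. Of these radial glia markers, *Fabp7*, *Vim*, *Nes* and *Ptprz1* were thus widely present. *Hes1*, *Hopx* and *Pax6*, the dorsal marker named here, were not. *Sox2* and *Hes5* were not analysed here.

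Markers of other lineages were mostly low, whereas *Olig2* and the neuronal gene *Map2* were broadly present. *Olig2*, a transcription factor of the oligodendrocyte lineage and of ventral progenitors, reached 2.56 in culture 1 and 2.38 in culture 2 in unstaged cells and 2.40 and 2.42 in comparison cells, with differences of opposite sign in the cultures. *Pdgfra* and *Sox10*, which mark oligodendrocyte precursors, were detected in only 2.50% and 0.971% and in 3.46% and 0.607% of unstaged cells. The neuronal gene *Dcx* was detected in 5.48% and 1.58% and *Gad1*, an enzyme of GABA synthesis, in 3.81% and 0.729%. In contrast *Map2* was detected in 74.4% and 59.0% of unstaged cells, with levels of 1.17 and 1.06, and *Elavl3* in 30.5% and 37.1%. With *Olig2* included, and summed over the 6 oligodendrocyte lineage genes analysed the level was 3.05 and 2.87 in unstaged and 2.98 and 2.91 in comparison cells. For genes of intermediate progenitors and neurons, of which 4 were analysed and 2 passed the filter, the median differences were -0.02 and -0.05. How much of these low values is free RNA was not tested. For the microglial, endothelial and erythroid markers no gene was analysed here.

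Astroglial genes were somewhat higher in unstaged cells, as they were in the rest of the arc. The summed level of 6 of them was 3.71 and 2.70 in unstaged cells and 2.55 and 2.32 in comparison cells, and 4 of the 5 that passed the filter were higher in both cultures, none by 0.5, beside 33.5% of all genes tested. Against cells of the same arc called G2 or G2.M, 0 of 5 were higher and 4 lower in both cultures, beside 29.7% and 24.7% of all genes. Against those called M.G1, 3 were higher and 2 lower, beside 25.8% and 39.7% of all genes. The largest difference from comparison cells was that of *Apoe*, a lipid carrier, at 0.47 and 0.25. *S100b* was detected in 22.8% and 6.50% of unstaged cells and *Gfap*, *Aqp4* and *Aldoc* were not analysed here. Whether these genes have a part in the results below was not tested.

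Set against comparison cells, the unstaged cells differed mainly in genes that were lower. Over 7277 genes that passed the filter, 150 were lower by at least 0.5 on the log2 scale in both cultures (2.06%) and 5 were higher (0.0687%). With differences taken as log2 ratios of linear means, which do not damp low genes as the added 1 does, 773 were lower and 212 higher. On the first scale, all cells of the last arc, staged or not, had 145 genes lower and 4 higher than comparison cells. Counts of this size thus belonged to the arc as a whole, of which the unstaged cells are part. The rule chose cells by position, which is computed from cell-cycle genes, so these differences are a description and carry no test. Outside a list of 602 cell-cycle genes, 57 of 6729 genes were past -0.5 and 4 past 0.5 on the log2(value + 1) scale. That list is not the gene set behind the position, which may hold some of the genes outside it. The median difference over all genes was -0.01 in culture 1 and -0.02 in culture 2.

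**Figure D2:**
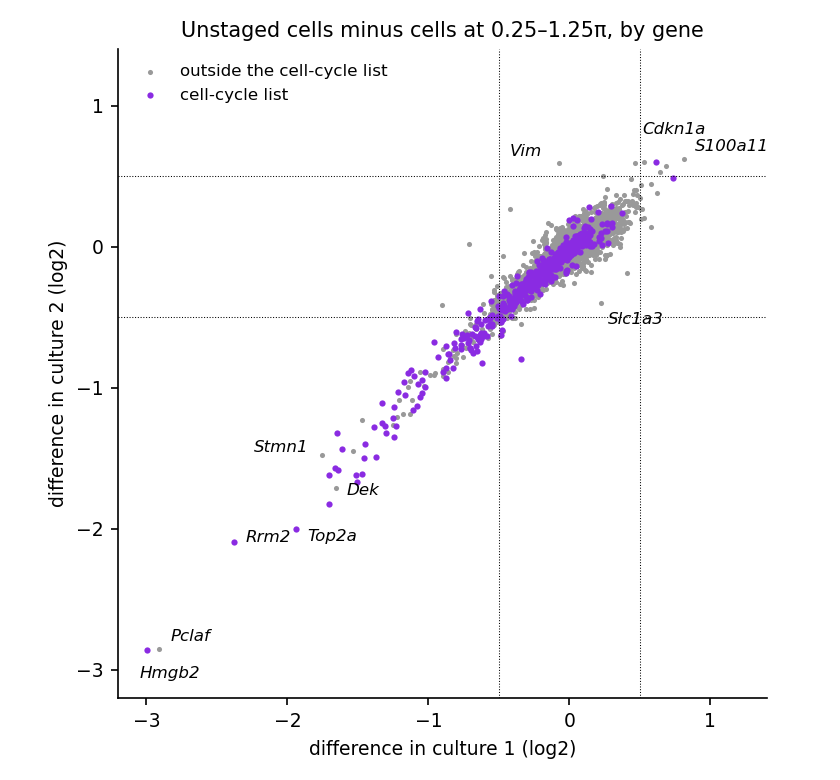
Difference in mean log2(value + 1) between unstaged cells and comparison cells in culture 1 (x axis) and culture 2 (y axis), 1 point for each of 7277 genes, with genes of the cell-cycle list in purple, others in grey, and dotted lines at 0.5 in either direction. The points follow the diagonal with a long lower arm that ends at *Hmgb2* and *Pclaf*, and *Vim* and *Slc1a3* lie off it.

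Genes of DNA replication were among the lowest. Of 17 genes of replication licensing and nucleotide synthesis 14 were lower by 0.5 or more in both cultures, beside 2.06% of all genes. All 17 were lower by some amount in both cultures, with median differences of -1.02 and -0.89, against 48.5% of all genes. *Rrm2*, a subunit of ribonucleotide reductase, had a level of 0.34 in culture 1 and 0.38 in culture 2 in unstaged cells and 2.71 and 2.47 in comparison cells. *Pcna*, the sliding clamp of DNA polymerase, stood at 0.69 in culture 1 and 0.65 in culture 2 against 2.40 and 2.27. Both genes were low in unstaged cells of either culture, and their differences were -2.23 ± 0.20 (SD, n = 2) and -1.66 ± 0.06 (SD, n = 2). The helicase subunits *Mcm3* and *Mcm5*, which license origins in G1, differed by -1.17 and -1.06 and by -1.03 and -0.89. Only *Slbp*, which binds histone mRNA, *Cdc6*, a loader of the helicase, and *Mcm4* stayed short of 0.5 in 1 or both cultures, at -0.47 and -0.35, -0.34 and -0.27 and -0.72 and -0.47.

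Mitotic genes were close to the floor as well. Of 19 that passed the filter, 16 were lower by 0.5 or more in both cultures, beside 2.06% of all genes. The medians were -1.24 and -1.11. *Top2a*, the topoisomerase that untangles chromosomes, had a level of 0.15 in culture 1 and 0.14 in culture 2 against 2.09 and 2.15 in comparison cells. *Mki67*, the standard proliferation marker, stood at 0.07 in culture 1 and 0.07 in culture 2 against 1.31 and 1.43. *Cdk1*, the kinase of mitotic entry, differed by -1.52 ± 0.13 (SD, n = 2). *Arl6ip1*, a membrane-shaping protein of the endoplasmic reticulum, remained at 2.22 in culture 1 and 1.89 in culture 2 and was detected in 97.7% and 79.4% of unstaged cells, although its differences were -0.62 and -0.83. *Ccnb2*, *Kif20a* and *Kif23* were lower by less than the limit in at least 1 culture.

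Genes of chromatin and of the nuclear lamina were unequal. Of 14 that passed the filter 7 were lower by 0.5 or more, beside 2.06% of all genes, with medians of -0.55 and -0.57. *Hmgb2*, a DNA-bending protein abundant in dividing cells, had the largest difference of the genes compared, with a level of 0.87 in culture 1 and 0.98 in culture 2 in unstaged cells and 3.86 and 3.84 in comparison cells. Its difference was -2.93 ± 0.10 (SD, n = 2). *Lmnb1*, which encodes lamin B1 of the nuclear lamina, stood at 0.40 in culture 1 and 0.44 in culture 2 against 1.87 and 1.67. *Lmna*, *Hmga1* and *Hmga2* went the other way by less than 0.5, at 0.14 and 0.28, 0.11 and 0.25 and 0.08 and 0.22. The replication-independent histone gene *H3f3a* was nearly level, at -0.09 and -0.12.

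Among genes outside the cell-cycle list, the 12 lowest were *Pclaf*, *Dek*, *Stmn1*, *Dut*, *Dnajc9*, *Lmnb1*, *Lsm2*, *Hat1*, *Ccdc34*, *Cenpm*, *Tubb5* and *Anp32b*. *Pclaf* (chr9:65890237-65903266, plus strand, GRCm38), a partner of PCNA, had a level of 0.27 in culture 1 and 0.43 in culture 2 in unstaged cells and 3.18 and 3.29 in comparison cells. Both cultures were alike, with a difference of -2.88 ± 0.04 (SD, n = 2). *Dek*, a chromatin protein, differed by -1.69 ± 0.04 (SD, n = 2), and *Dut*, which keeps uracil out of DNA, by -1.49 ± 0.06 (SD, n = 2). *Hat1* and *Dnajc9* handle newly made histones, and differed by -1.18 and -1.19 and by -1.25 and -1.26. Several of these are genes of S phase that the list happens to lack. *Lsm2*, of the ring that binds U6 RNA, differed by -1.22 and -1.21, and *Tubb5*, a beta-tubulin, by -1.21 and -1.09 from levels that remained at 3.50 and 3.38.

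Few genes were higher, and by less. The 5 past 0.5 in both cultures were *S100a11*, *Ndfip1*, *Map1b*, *Mxd4* and *Cdkn1a*. *S100a11* (chr3:93520488-93526287, plus strand), a calcium-binding protein, had a level of 2.45 in culture 1 and 2.50 in culture 2 in unstaged cells and 1.64 and 1.88 in comparison cells. Both cultures were higher, by 0.72 ± 0.13 (SD, n = 2). *Ndfip1*, an adaptor of Nedd4-type ubiquitin ligases, stood at 3.26 in culture 1 and 2.85 in culture 2 against 2.58 and 2.27, a difference of 0.63 ± 0.08 (SD, n = 2). *Map1b*, a microtubule-binding protein known from growing axons, stood at 2.31 in culture 1 and 2.32 in culture 2 against 1.78 and 1.72.

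*Mxd4* (chr5:34173883-34187720, minus strand) encodes a repressor that competes with MYC for their common partner MAX. Its level was 1.15 in culture 1 and 1.15 in culture 2 in unstaged cells and 0.51 and 0.62 in comparison cells. The difference was 0.58 ± 0.08 (SD, n = 2). *Myc* itself was nearly level, at 0.45 in culture 1 and 0.36 in culture 2 against 0.45 and 0.33. Unstaged cells at the start of the circle, from 0 to 0.25π, had *Mxd4* levels of 1.07 and 1.01, close to those at its end.

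The remaining genes of the 12 highest outside the list were past 0.3 but not 0.5 in both cultures. They were *S100a10*, which binds annexin A2 (0.47 and 0.60), the tetraspanin *Cd81* (0.58 and 0.44), the matrix protein *Sparc* (0.51 and 0.44), the Golgi GTPase *Rab6a* (0.43 and 0.48), the dynein light chain *Dynlt1b* (0.46 and 0.40), *Cdkn2b* (0.47 and 0.40), *Pbxip1* (0.62 and 0.38) and *Selenos*, a selenoprotein of the endoplasmic reticulum (0.45 and 0.37). *Dynlt1b* belongs to a family of near-identical copies, so its share of the reads is uncertain.

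**Figure D3:**
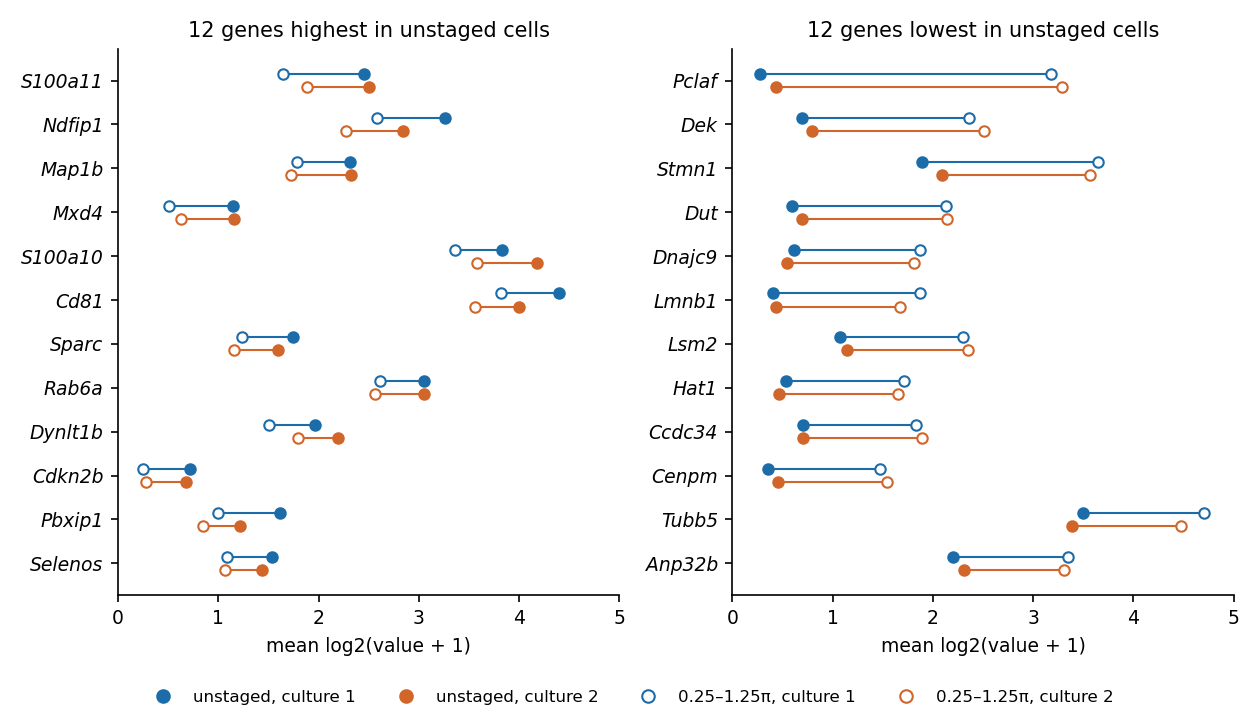
Mean log2(value + 1) (x axis) of the 12 genes outside the cell-cycle list that were highest (left) and lowest (right) in unstaged cells (filled) against comparison cells (open), in culture 1 (blue) and culture 2 (orange). Every line runs the same way in both cultures, and the lines on the right are longer, up to 2.91 for *Pclaf*, than those on the left, up to 0.81 for *S100a11*.

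The CDK inhibitors did not move together. *Cdkn1a* (chr17:29090976-29100727, plus strand), which encodes p21, had a level of 3.04 in culture 1 and 3.15 in culture 2 in unstaged cells and 2.43 and 2.54 in comparison cells, and was detected in 89.7% and 97.1% of unstaged cells. Both cultures were higher, by 0.61 ± 0.01 (SD, n = 2). *Cdkn2b* (p15) and *Cdkn2a* (p16 and p19ARF) had levels of 0.72 and 0.68 and of 0.96 and 0.91, with differences of 0.47 and 0.40 and 0.33 and 0.37. In contrast *Cdkn2c* (p18) had differences of -0.47 and -0.60. *Cdkn1b* (p27), which is abundant in many resting cells, was low, at 0.38 and 0.34, with differences of -0.10 and -0.15. Of 12 CDK inhibitors and antiproliferative genes 1 was higher by 0.5 in both cultures and 0 lower, beside 0.0687% and 2.06% of all genes. The medians were 0.03 and 0.00.

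The p53 targets were mostly higher by small amounts, and *Cdkn1a* and *Ccng1* are in this list, in that of the CDK inhibitors and in the cell-cycle list. Of 13 that passed the filter, 12 were higher in both cultures and 1 (*Sesn1*) lower, against 33.5% of all genes higher in both, and the medians were 0.12 and 0.09. *Cdkn1a* was the only one past 0.5 in both cultures. *Ccng1*, a cyclin-like regulator, had a level of 2.15 in culture 1 and 1.84 in culture 2 against 1.42 and 1.35, just under the limit in culture 2. *Bax*, which opens mitochondria in apoptosis, differed by 0.33 and 0.31. *Mdm2*, the ubiquitin ligase of p53 and itself a target, was nearly level at 0.03 and 0.02, and *Bbc3* differed by 0.12 and 0.09.

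Of the D-type cyclins, *Ccnd1* and *Ccnd2* were well expressed in unstaged cells and *Ccnd3* less so, at 0.71 and 0.82. E-type cyclins were low. *Ccnd1* stood at 4.06 in culture 1 and 4.09 in culture 2, and *Ccnd2* at 4.62 in culture 1 and 4.69 in culture 2, with differences from comparison cells of 0.06 and 0.19 and of 0.24 and 0.50. *Ccne1*, which acts at the entry to S phase, had a level of 0.13 in culture 1 and 0.11 in culture 2 against 0.69 and 0.61. *Ccne2* had 0.02 and 0.01 against 0.46 and 0.35. *E2f1* was at 0.04 and 0.07 and differed by -0.47 and -0.52. The receptors for the growth factors in the medium, *Egfr* and *Fgfr1*, differed by 0.08 and 0.07 and by -0.04 and -0.13. In all, 1 of 12 genes of this list was lower by 0.5 in both cultures (*Ccne1*), beside 2.06% of all genes, and none was higher.

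Unstaged cells on the other side of the 0 angle, from 0 to 0.25π (296 and 346 cells), had other levels of several of these genes. *Cdkn1a* was 1.99 and 2.16 there, against 3.04 and 3.15 at the end of the circle. *Ccng1* was 1.42 and 1.24 against 2.15 and 1.84. In the opposite direction, *Pcna* was 1.29 and 1.36 against 0.69 and 0.65, and *Mcm5* was 0.36 and 0.33 against 0.10 and 0.07. *Ccne1* stood at 0.29 and 0.32, above its level in unstaged cells of the last arc in both cultures. Position was used to separate these groups, so the values are side by side only.

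Genes of ribosome production in the nucleolus were lower by small amounts, and those of the ribosome itself were nearly level. Of 20 nucleolar genes all 20 were lower than in comparison cells in both cultures, beside 48.5% of all genes. By 0.5 or more 2 were lower (*Nop56* and *Nop58*, core proteins of box C/D particles), beside 2.06% of all genes. The medians were -0.23 and -0.19. *Ncl*, nucleolin, had a level of 3.22 in culture 1 and 3.15 in culture 2 against 3.76 and 3.57. *Npm1*, nucleophosmin, differed by -0.55 and -0.21. The 61 genes of cytosolic ribosomal proteins had medians of 0.02 and 0.09, and none differed by 0.5 in both cultures.

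Metabolic groups differed little. Lysosomal genes had median differences of 0.11 and 0.07, with 13 of 17 higher in both cultures and none by 0.5, beside 33.5% of all genes higher and 48.5% lower in both. *Laptm4a* and *Lamp1*, membrane proteins of the lysosome, were among the higher ones, at 0.47 and 0.28 and 0.42 and 0.18. Glycolysis genes had medians of 0.11 and 0.09, with *Gpi1*, its isomerase, at 0.42 and 0.32. Cholesterol synthesis genes had medians of 0.11 and 0.06. Genes of the primary cilium, which resting cells often carry, showed medians of 0.02 and 0.00, with 9 of 20 higher and 9 lower in both cultures. In the lists of metallothioneins and antioxidant genes, extracellular matrix, immediate early genes, ATF4 targets and Notch or BMP targets likewise no gene was past 0.5 in both cultures.

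Within the last arc, where position was nearly the same, unstaged cells were set against the 446 and 741 cells called M.G1, to show what accompanied the lack of that call. Few genes differed. Of 6673 genes 16 were lower by at least 0.3 in both cultures (0.24%) and 1 was higher (0.015%). As log2 ratios of linear means the counts were 150 lower and 101 higher. With M.G1 cells weighted to the positions of the unstaged cells they were 13 lower and 0 higher. SchwabeCC made the call from stage lists of its own, which were not examined here. Of the 16 lower genes 11 lay outside the cell-cycle list, but SchwabeCC may have read some of them as well. The differences are therefore a description and are not separate from the call.

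Nucleolar genes were lower than in M.G1 cells. Of 20 nucleolar genes 5 were lower by 0.3 or more (*Gnl3*, *Dkc1*, *Ncl*, *Nop56* and *Nop58*), beside 0.24% of all genes. All 20 were lower by some amount in both cultures, against 39.7% of all genes. The medians were -0.22 and -0.22. *Gnl3* (chr14:31012433-31019152, minus strand), nucleostemin, a GTPase of stem-cell nucleoli, had a level of 1.20 in culture 1 and 1.23 in culture 2 in unstaged cells and 1.62 and 1.63 in M.G1 cells. The difference was -0.41 ± 0.02 (SD, n = 2) and nearly equal in the cultures. *Dkc1*, dyskerin, which modifies ribosomal RNA, stood at 0.69 in culture 1 and 0.56 in culture 2 against 1.06 and 0.94, a difference of -0.37 ± 0.01 (SD, n = 2). *Ncl* stood at 3.22 in culture 1 and 3.15 in culture 2 against 3.57 and 3.49.

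The other genes lower than in M.G1 cells had varied roles. *Stmn1* had a level of 1.89 in culture 1 and 2.09 in culture 2 against 2.74 and 2.51 in M.G1 cells, a difference of -0.64 ± 0.30 (SD, n = 2) that was larger in culture 1. *G3bp1*, a stress granule protein, differed by -0.40 and -0.43, *Syncrip*, an RNA-binding protein, by -0.33 and -0.39, and *Hmgb1* by -0.44 and -0.37. The histone chaperones *Anp32b* and *Anp32e*, of which *Anp32e* is in the cell-cycle list, differed by -0.33 and -0.35 and -0.47 and -0.45. *Cct6a*, a subunit of the chaperonin that folds tubulin and actin, was just past the limit at -0.30 and -0.31. The other genes past it, *Pbk*, *Ube2s*, *Srsf3* and *Lyar*, are in the cell-cycle list.

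*Mxd4* was the 1 gene past the limit in the other direction. Its level was 1.15 in culture 1 and 1.15 in culture 2 in unstaged cells and 0.73 and 0.85 in M.G1 cells, a difference of 0.36 ± 0.08 (SD, n = 2), so that culture 2 lay at the limit of 0.3 itself. Without the cells whose barcodes occur in both cultures, or with M.G1 cells weighted to the positions of the unstaged cells, no gene was higher by 0.3 in both cultures. The mean difference of *Mxd4* was then 0.36 and 0.33. Next in order were *Gabarap*, an autophagy protein (0.20 and 0.23), *Serpine2*, a protease inhibitor (0.19 and 0.21), *BC031181* (0.17 and 0.17), *Npdc1* (0.17 and 0.19) and the histone variant *H2afj* (0.16 and 0.21).

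The p53 targets were slightly higher than in M.G1 cells. *Cdkn1a* was higher than in M.G1 cells by 0.20 ± 0.02 (SD, n = 2) and *Ccng1* by 0.19 ± 0.00 (SD, n = 2), and 9 of 12 targets were higher in both cultures, none by 0.3, with medians of 0.08 and 0.06, beside 25.8% of all genes higher in both. Cholesterol synthesis genes were on the low side, 13 of 19 lower in both cultures and none higher, with medians of -0.13 and -0.04, beside 39.7% of all genes lower and 25.8% higher. *Msmo1* and *Sqle*, enzymes of that pathway, differed by -0.22 and -0.16 and by -0.19 and -0.12. Against the G2 and G2.M cells of the arc both lists went the other way. There, 0 of 12 p53 targets were higher and 7 lower in both cultures, and 14 of 19 cholesterol synthesis genes were higher and 1 lower. The shares of all genes in that comparison were 29.7% higher and 24.7% lower. All of these comparisons share the unstaged cells, so they are not separate evidence. Radial glia genes had medians of -0.03 and 0.02.

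Against the 480 and 562 cells of the same arc that were called G2 or G2.M, no gene of 6613 differed by 0.3 in both cultures (0% in either direction). The largest mean difference was 0.20, for *Lyar*, a nucleolar protein of the cell-cycle list. The stage calls define these groups, and SchwabeCC may have read some of the genes named below, so their differences are a description. Outside the cell-cycle list, *Dkc1* headed the genes that were higher in unstaged cells, with levels of 0.69 and 0.56 against 0.49 and 0.40. Its difference was 0.18 ± 0.03 (SD, n = 2). It was followed by *Ebna1bp2*, a nucleolar protein (0.14 and 0.14), the cap-binding protein *Eif4e* (0.14 and 0.19), *Llph* (0.13 and 0.14), *Syncrip* (0.15 and 0.13) and *Cbx3*, a heterochromatin protein (0.22 and 0.12). *Apoe* was at the other end, at -0.13 and -0.13. Next to it were *Npc2*, which binds cholesterol in lysosomes (-0.10 and -0.12), *Mpc1*, a pyruvate carrier (-0.10 and -0.10), *Hist1h2bc* (-0.15 and -0.10), *Ldhb* (-0.10 and -0.14) and *Mtch1* (-0.08 and -0.10).

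The G2 and G2.M cells of this arc had low levels of mitotic genes. Their level of *Top2a* was 0.16 in culture 1 and 0.15 in culture 2, beside 0.15 and 0.14 in unstaged cells and 2.09 and 2.15 in comparison cells. *Cdkn1a* stood at 3.07 and 3.32 in them, at or above its level in unstaged cells (3.04 and 3.15). *Mxd4* stood at 1.13 and 1.27 against 1.15 and 1.15. M.G1 cells had 2.82 and 2.96 for *Cdkn1a* and 0.73 and 0.85 for *Mxd4*, below either group in both cultures.

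In nucleolar genes the unstaged cells lay between both kinds of staged cells. The stage calls define these groups and may have read some of these genes, so the order is a description. Of 20 genes 19 were higher than in G2 and G2.M cells in both cultures, with medians of 0.04 and 0.08 and beside 29.7% of all genes, and all 20 were lower than in M.G1 cells. They lay nearer to the former. For *Ncl* the levels were 3.12 and 3.01 in G2 and G2.M cells, 3.22 and 3.15 in unstaged cells and 3.57 and 3.49 in M.G1 cells. For *Npm1* they were 4.03 and 4.10, 4.14 and 4.18 and 4.43 and 4.38 in the same order.

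**Figure D4:**
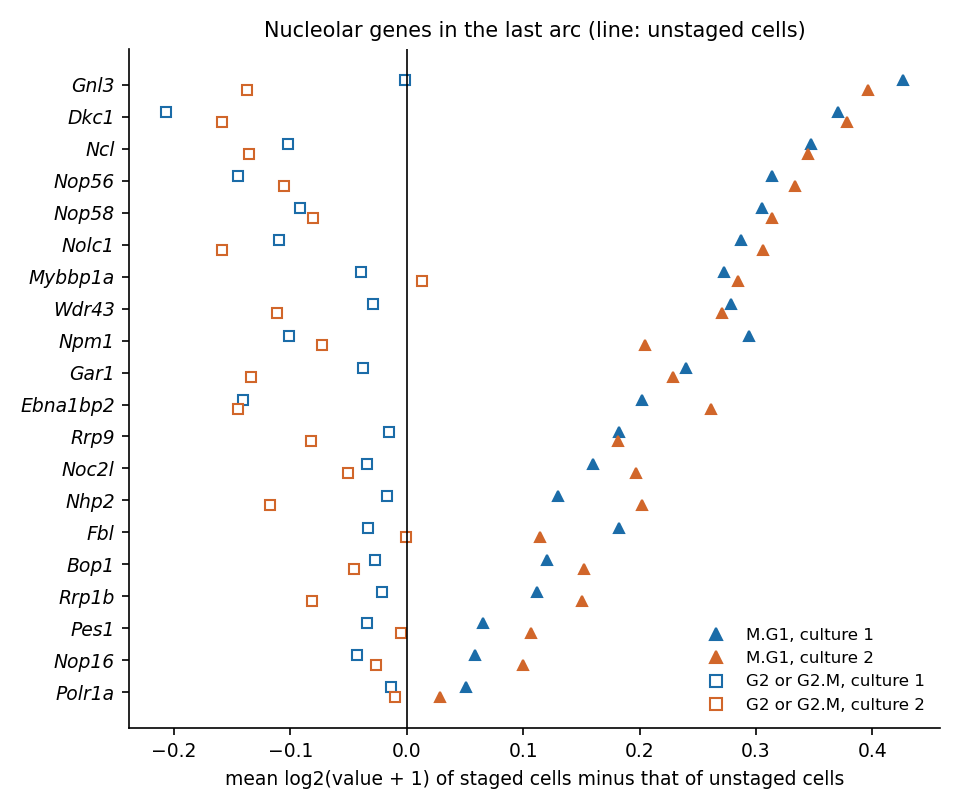
Mean log2(value + 1) of cells called M.G1 (triangles) and of cells called G2 or G2.M (open squares) minus that of unstaged cells (vertical line at 0) for 20 nucleolar genes in the last arc, in culture 1 (blue) and culture 2 (orange). All triangles lie above 0, up to 0.43 for *Gnl3* in culture 1, and all squares lie at or below 0 except *Mybbp1a* in culture 2.

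Unstaged cells were not alike among themselves. Ranked by variance beyond that of genes of like level, the 12 most variable genes outside the cell-cycle list included *Rps7*, *Mt3*, *Lgals1*, *Acta2*, *Igfbp2*, *Ccnd2*, *Gap43*, *Mt2*, *Slc1a3* and *Ndufs5*. *Mt3*, a metallothionein of the brain, had a median of 4.43 in culture 1 and 4.05 in culture 2, but at most 1.89 and 2.09 in the lowest 10% of unstaged cells and at least 5.35 and 5.58 in the highest 10%. *Igfbp2*, which binds insulin-like growth factors, ranged between the same bounds from 2.81 to 5.60 and, in culture 2, from 2.58 to 5.62. *Gap43*, a membrane protein of growing axons, ranged from 0.00 to 4.41 and from 0.90 to 4.47. Values of these genes thus spanned more than 2 log2 units among cells of 1 culture.

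Several of them varied together across cells. Over 839 cells of culture 1 and 1647 of culture 2, Pearson's r between *Mt3* and *Igfbp2* was 0.77 and 0.59, between *Mt3* and *Slc1a3* 0.71 and 0.49, and between *Mt3* and *Ccnd2* 0.59 and 0.37. *Basp1*, a growth-cone protein that ranked just after the 12, ran against them, with r of -0.63 and -0.48 to *Mt3* and -0.56 and -0.54 to *Igfbp2*, and with *Gap43*, at 0.45 and 0.48. Cells of a culture share a library and the values share a scaling to depth, so r is a description. *Mt3* correlated with log2 total UMIs of the cell by 0.53 and 0.21, and *Igfbp2* by 0.53 and 0.18. The part of depth in these correlations was not tested.

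The same pairs varied together in comparison cells, with r between *Mt3* and *Igfbp2* of 0.74 and 0.55 and between *Mt3* and *Basp1* of -0.69 and -0.51, over 3140 and 2598 cells. These pairs were therefore not particular to the unstaged cells. *Cdkn1a* went with *Ccnd2* by 0.47 and 0.28 and with *Mt3* by 0.30 and 0.13 among unstaged cells, and by 0.29 and 0.03 and by 0.16 and 0.03 among comparison cells. *Vim* and *Mt3* had an r of opposite sign in the cultures, 0.29 and -0.26.

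**Figure D5:**
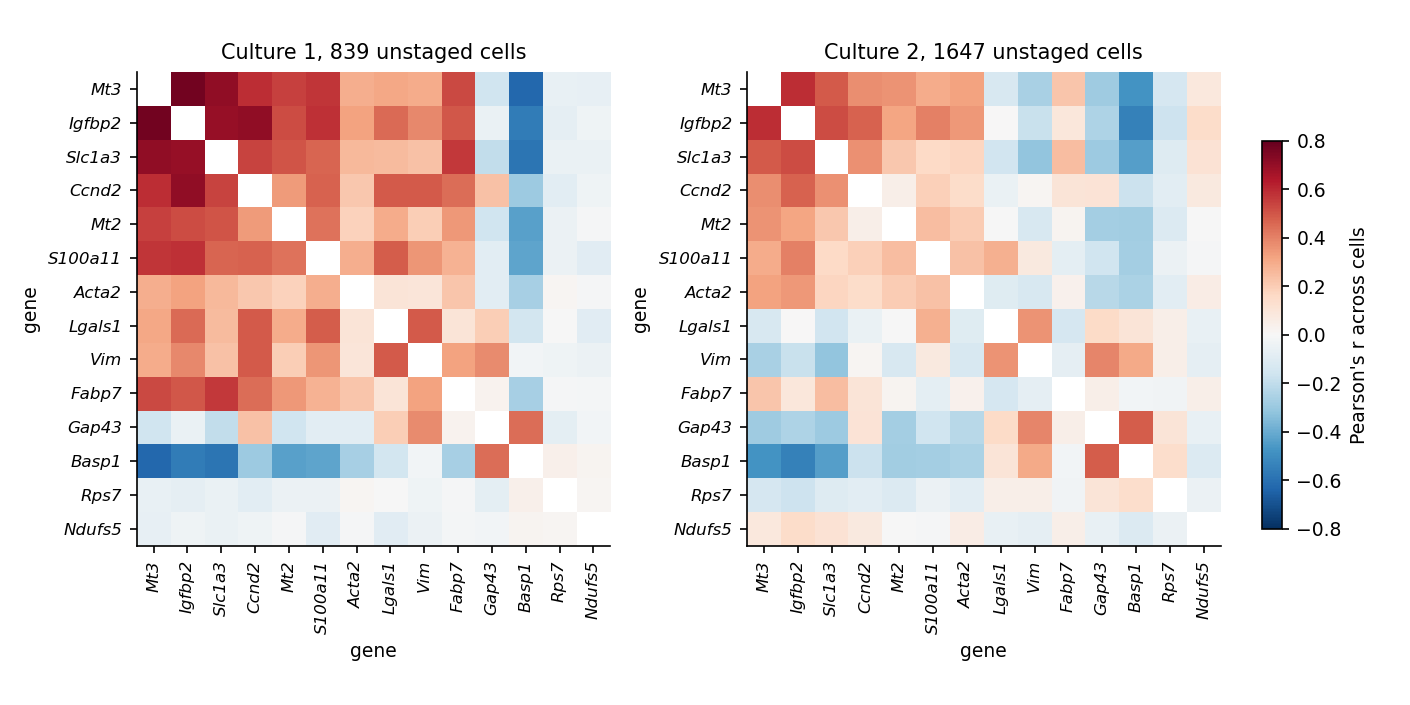
Pearson's r across unstaged cells (colour, from blue for negative to red for positive) between 14 genes in culture 1 (left) and culture 2 (right), with the diagonal left blank. *Mt3*, *Igfbp2*, *Slc1a3* and *Ccnd2* form a red block in both cultures that *Basp1* opposes, and *Rps7* and *Ndufs5* are pale throughout.

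*Rps7* and *Ndufs5* were at 0 in part of the unstaged cells, with detection in 85.9% and 89.3% and in 51.6% and 74.7%, and correlated with none of the other genes shown by more than 0.17 in size.

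*Acta2*, smooth muscle actin, which also marks mural cells, was detected in 42.2% and 33.1% of unstaged cells and 36.4% and 34.8% of comparison cells. Its level was 0.96 in culture 1 and 0.79 in culture 2, and its r to *Igfbp2* was 0.32 and 0.35. No other mesenchymal or mural marker was analysed here, and whether other cells carried it was not tested.

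Along the arc itself, the few unstaged cells before 1.875π (19 and 112 cells) had higher levels of some genes of dividing cells than the later ones (820 and 1535). *Stmn1* stood at 3.18 against 1.86 in culture 1 and 3.40 against 1.99 in culture 2, earlier against later. *Arl6ip1* stood at 3.51 against 2.19 in culture 1 and 3.04 against 1.81 in culture 2. *Calr*, a chaperone of the endoplasmic reticulum, went the other way, at 2.75 against 3.30 in culture 1 and 2.60 against 3.10 in culture 2. *Mxd4* likewise was lower in the earlier cells, at 0.77 against 1.15 in culture 1 and 0.86 against 1.17 in culture 2. Position defined the split and the earlier cells of culture 1 are few, so these levels are a description.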

How the data were processed

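Neurospheres of 1 condition were measured in 2 cultures by Chromium 3′ single-cell RNA-seq. The authors estimated spliced and unspliced counts with Alevin (Salmon 1.3.0) against GRCm38, took spliced counts as expression, and removed cells with few genes or with outlying UMIs, genes, mitochondrial share or doublet score, so no doublet caller was run here. The deposited expression signal is linear and scaled by the authors to each cell's depth, with column sums near 11598 and 11399. Read counts could not be recovered from it. The deposited total UMIs per cell are estimated counts and give the depth. Position and stage calls are those of the authors. The submitters' notes name Seurat 3.2.2.

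Means over cells of log2(value + 1) were compared within each culture with Python 3.11.15, numpy 2.4.6 and pandas 2.3.3, for genes detected (value above 0) in at least 10% of either group in each culture. A gene counted as higher or lower where both cultures differed the same way by 0.5, or by 0.3 within the arc. The script was tested on simulated data. Cell-cycle genes were the mouse markers of cyclone (scran 1.30.0) joined with Seurat 5.3.0's S and G2M genes. Named genes were the 12 highest and 12 lowest outside that list by the smaller of the differences, 6 per side within the arc, the 12 of largest excess variance, and main or extreme members of the gene lists. *Lyar*, *Basp1*, and genes named for the earlier and later stretch of the arc were chosen after their values were seen. The members and lists were chosen with earlier results of these data known. Some results among the most variable genes are not reported here. Symbols matched 10662 of 10666 genes, and positions are from GENCODE vM21 (GRCm38). Depth limits the shares of detected cells, and intervals cover counting error only. Alternatives are given in the closing section.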

Additional observations from a re-analysis of the deposited data

How the results depend on the processing

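Counts of genes past a limit depended on the scale of the values. Against comparison cells, 5 genes were higher and 150 lower. With a pseudocount of 0.1 the counts were 42 and 693, with log2 ratios of linear means 212 and 773, with a limit of 0.3 they were 28 and 355, and with a limit of 1 they were 0 and 41. Weighting comparison cells to the total UMIs of the unstaged cells gave 8 higher and 142 lower. All cells of the last arc, staged or not, gave 4 higher and 145 lower. With 1 culture left out, 7 to 15 genes were higher and 166 to 189 lower. Against M.G1 cells, 1 gene was higher and 16 lower, with 10 and 163 at a pseudocount of 0.1, 101 and 150 by linear means, and 0 and 0 at a limit of 0.5. None was higher without shared barcodes (16 lower) or with weighting to position (13 lower), both added after seeing the data, as was an arc from 1.9π (1 higher, 13 lower). With 1 culture left out the counts were 1 to 2 and 22 to 27, the 27 being culture 1 alone. The log2 difference in median UMIs, -0.22, was -0.30 against comparison cells without a stage, and -0.24 to -0.20 with 1 culture left out. The share of unstaged cells was 14.6% to 23.3% by culture.

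Filters on detection, centring and an arc from 1.7π, run against comparison cells, and an arc from 1.8π, run against both, kept these counts within 1.5 times their values. The mean differences of *Fabp7* and *Vim* changed sign in 1 of 15 alternatives each. *Cdkn1a*, *Mxd4* and *S100a11* remained higher, and *Pclaf* and the nucleolar median lower, under all 15. The cause of these shifts was not tested. No test was run, so no paired test was either, but each difference was taken within a culture. Cells at low depth leave values of low genes at 0, which limits their differences on the log2(value + 1) scale.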

Other observations

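The letters CACGTG, the E-box bound by MYC and by MAX with its partners, were searched after the values had been seen, in promoter windows of 250 bases before to 50 after the start (RefSeq, GRCm38.p6). The motif reads the same on both strands. It was found in 600 of 5344 genes compared with M.G1 cells (11.2%), in 3 of 17 nucleolar genes (17.6%) and in 1 of the 14 genes lower than in M.G1 cells that had a window (7.14%). These shares rest on few genes and carry no test.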
